A study of Mus musculus with 13 samples.

Results

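Coding INDELs were the insertions and deletions on chromosomes 1 to 19 that the deposited annotation places in exons ("exonic") and that were covered by at least 10 reads. They numbered 194 calls, or 88 distinct combinations of position and alleles, among 587523 INDEL calls (343748 distinct) on the same chromosomes at the same depth and 780175 INDEL calls in the tables as a whole. Of the 88 distinct calls, 21 were annotated as frameshift and 59 as in-frame, 8 had an unknown consequence and none was annotated as gaining or losing a stop codon. In all 7 libraries the coding INDELs fell into the same pair of layers. A small set of calls was shared by every library, the control included. The remainder was mostly called in 1 library each, and 47 of the 48 in-frame calls of that kind rested on 5 or fewer alternative reads.

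The libraries came from genomic DNA of GFP+ bone marrow cells of C57BL/6 mice aged 8 to 10 weeks, 1 library for each of 7 populations. The 6 leukaemia libraries carried retroviral N-Myc and were sorted by surface markers. T-ALL cells were CD3+, B-ALL cells B220+ and AML cells Mac1+ and Gr1+, while AUL cells lacked B220, CD3, Mac1 and Gr1. M-MPAL cells were Mac1/Gr1+ without B220 or CD3/4/8, and T-MPAL cells were CD3/4/8+ without B220 or Mac1/Gr1. The empty control was the GFP+ population of empty control mice. Cell input was 1000000 for the control, T-MPAL and M-MPAL, but 2000000 for the other leukaemias. Without the depth limit, INDEL calls numbered 92317 (T-MPAL) to 100277 (control) in the former set. They numbered 114707 (AUL) to 132423 (T-ALL) in the latter set. Setting the control beside the latter set therefore also crosses this split, whose effect was not tested. A library is a mixture of the cells of its sort, no matched normal tissue of the same animals was analysed here, and with 1 library per population no difference between populations has a replicate check and none was tested.

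An insertion or deletion inside a coding exon keeps the reading frame when its length is a multiple of 3 bases and shifts the frame otherwise. A shifted frame changes every later codon and usually runs into an early stop, whereas an in-frame change removes or adds whole amino acids. Many proteins carry runs of 1 amino acid, such as glutamine or glutamate, that are encoded by tandem copies of a trinucleotide, and such runs gain and lose copies more readily than unique sequence, both in cells and during amplification and sequencing of DNA.

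The deleted or inserted bases of the calls on which the results turn are printed first. Most frameshift calls lay outside annotated repeats, while most in-frame calls lay in trinucleotide runs. Each line gives the plus strand of mm10 as the deposited alleles give it, 5′ to 3′, and starts with the base before the change. Capitals mark the deleted bases, or the inserted bases in both lines of Rsf1, where the alternative allele is shown. The positions were chr1:173332853-173332865 for Ackr1, chr6:47957592-47957621 for Zfp956, chr13:101688697-101688739 for Pik3r1, chr5:110323965-110323977 for Pole, chr3:37125766-37125804 for Il2, chr5:76227042-76227067 for Clock, chr7:80512904-80512933 for Blm, chr15:98849587-98849637 and chr15:98845131-98845190 for Kmt2d, chr4:135705730-135705753 for Ifnlr1, chr12:33958220-33958236 for Twist1 and chr7:97579905-97579909 for Rsf1.
Ackr1, 11 bases, frameshift: tAGTTATCTTCAa
Zfp956, 27 bases, frameshift: aGGCTCTCTAGGTAAGAGACATCCCCAGgg
Pole, 2 bases, frameshift: cTGtgtgtgtgtg
Pik3r1, 39 bases, in-frame: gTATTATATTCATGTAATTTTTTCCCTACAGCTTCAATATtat
Il2, 3 bases, in-frame: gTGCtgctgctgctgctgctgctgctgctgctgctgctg
Clock, 3 bases, in-frame: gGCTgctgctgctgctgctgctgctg
Blm, 3 bases, in-frame: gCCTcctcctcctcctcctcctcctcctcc
Kmt2d, exon 35, 3 bases, in-frame: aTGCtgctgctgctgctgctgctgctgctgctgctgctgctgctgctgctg
Kmt2d, exon 40, 3 bases, in-frame: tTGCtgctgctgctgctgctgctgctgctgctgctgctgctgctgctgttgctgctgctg
Ifnlr1, 3 bases, in-frame: aGAGgaggaggaggaggaggagga
Twist1, 3 bases, in-frame: aGGCggcggcggcggcg
Rsf1, 6-base insertion, in-frame: tGGCGACggcg
Rsf1, 9-base insertion, in-frame: tGGCGACGGCggcg
The 3 bases lost in Il2, Clock, Blm, Kmt2d, Ifnlr1 and Twist1 were 1 copy of a unit that the reference repeats many times. The 11 bases lost in Ackr1 and the 39 lost in Pik3r1 had no such repeat. The 2 bases lost in Pole, a frameshift, were 1 unit of a TG run, although no repeat was annotated there.

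The number of coding INDELs was of the same order in every library. From most to fewest among the leukaemias, T-MPAL and T-ALL had 32 each (95% Poisson interval 21.9 to 45.2), B-ALL had 30 (20.2 to 42.8), AUL 26 (16.98 to 38.1), M-MPAL 24 (15.4 to 35.7) and AML 21 (13 to 32.1), against 29 (19.4 to 41.7) in the control library. The control lay inside the range of the leukaemias, and all 7 intervals overlapped. Per 10000 INDEL calls of the same library on the same chromosomes, coding calls made up 2.29 (AML) to 4.30 (T-MPAL) in the leukaemias and 3.59 in the control. Such intervals reflect counting error alone, because the libraries have no replicates. The reads carry no molecular identifiers and need not come from separate molecules, which limits the read shares given below.

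Frameshift calls varied little in number, from 8 to 11 per leukaemia against 8 in the control, while in-frame calls ranged from 6 to 18 against 17. The frameshift share of calls with a known consequence was therefore lowest where in-frame calls were many. From highest to lowest, AML had 60% (9 of 15; 95% exact interval 32.3 to 83.7), AUL 47.6% (10 of 21; 25.7 to 70.2), M-MPAL 47.4% (9 of 19; 24.5 to 71.1), T-ALL and B-ALL 44% (11 of 25 each; 24.4 to 65.1) and T-MPAL 30.8% (8 of 26; 14.3 to 51.8), against 32% (8 of 25; 14.95 to 53.5) in the control. The AML library, with the fewest in-frame calls, and the T-MPAL library, with the most, were the 2 ends, and their intervals overlapped. Counted once each over all libraries, frameshift calls made up 21 of 80, or 26.3% (17.0 to 37.3), because 10 of the 21 recurred in other libraries, against 11 of the 59 in-frame calls.

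**Figure D1:**
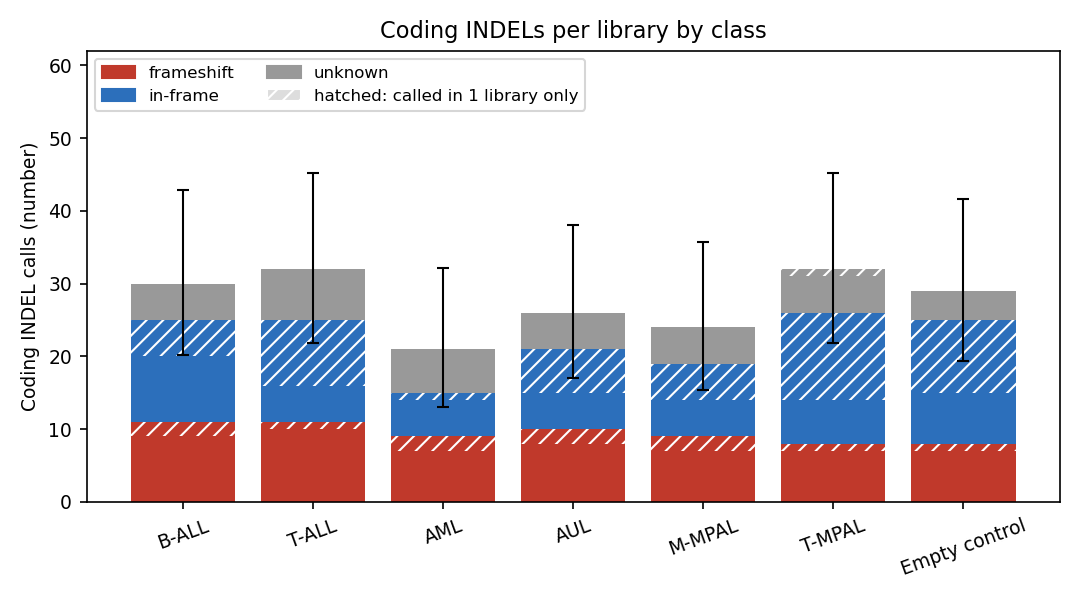
Number of coding INDEL calls (y axis) in each library (x axis), stacked by annotated class; hatched parts are calls found in that library alone, and bars mark the 95% Poisson interval of the total. Frameshift totals stayed between 8 and 11, and the hatched in-frame part ran from 1 in AML to 12 in T-MPAL, with 10 in the empty control.

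Deletions outnumbered insertions. Of the distinct calls 13 were insertions, or 14.8% (8.11 to 23.9), where the insertion share of all distinct INDELs at this depth was 22.6%. By class, insertions made up 4 of 21 frameshift calls, 2 of 59 in-frame calls (both in Rsf1) and 7 of 8 calls of unknown consequence. By library, the insertion share ran from 21.9% in T-MPAL to 42.9% in AML among the leukaemias, with 27.6% (12.7 to 47.2) in the control. These shares per library sat above that of the distinct calls because 8 of the 13 insertions were called in all 7 libraries.

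Lengths divided the classes almost completely, which follows from how the classes are defined. A length that is a multiple of 3 was found in 63 of 88 distinct coding calls, or 71.6% (61.0 to 80.7), while 4.09% of all distinct INDELs had such a length. Among in-frame calls 55 of 59 were exactly 3 bases long, and the other 4 were 6, 9, 39 and 51 bases long. Among frameshift calls 9 were 1 base and 7 were 2 bases long. The deposited class and the length disagreed in 2 of 80 calls, both where the annotation counts fewer coding bases as deleted than the length of the deletion. In Zfp956, a zinc finger gene, a 27-base deletion removed 10 annotated coding bases, and in the near-identical genes Gm4307, Gm4303 and Gm4305 a 3-base deletion removed 1.

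**Figure D2:**
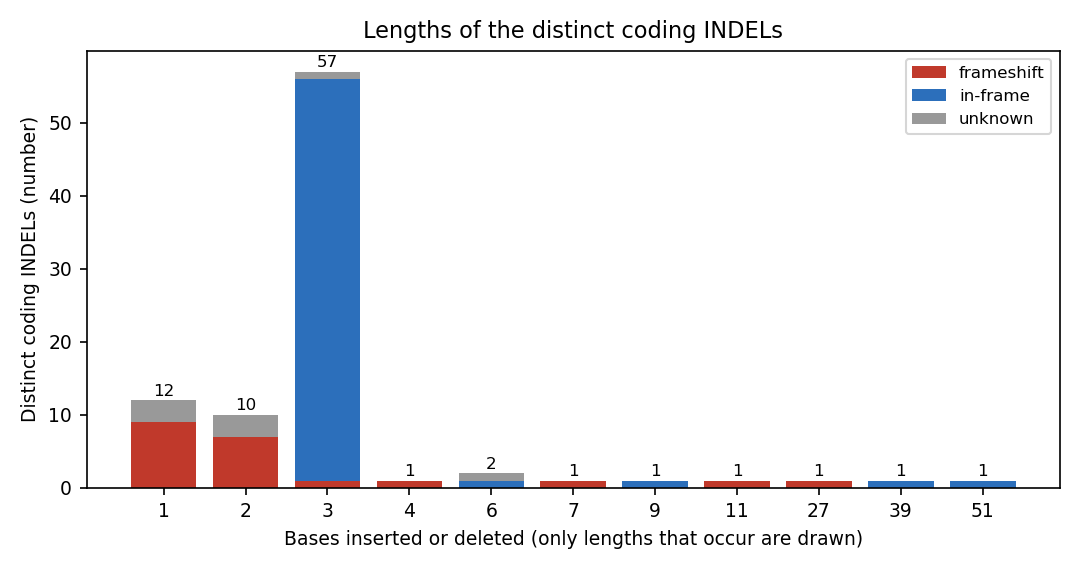
Distinct coding INDELs (y axis, number) by bases inserted or deleted (x axis; only lengths that occur are drawn), coloured by annotated class. The 57 calls of 3 bases are almost all in-frame, and the calls of 1 and 2 bases are frameshift or unknown.

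The classes also differed in the sequence around them. An annotated repeat covered 45 of 59 in-frame calls, each a simple repeat, and 5 of 21 frameshift calls. Of all coding calls 52 of 88, or 59.1% (48.1 to 69.5), lay in a repeat, where 97.2% of all distinct INDELs did. Segmental duplications covered 5 of 88 distinct coding calls. Per library they covered from 1 of 32 calls (T-ALL) to 3 of 24 (M-MPAL) in the leukaemias and 2 of 29 in the control. A dbSNP entry was listed for 12 of 88 distinct calls, of which 7 were in-frame, 4 unknown and 1 frameshift. Per library it was listed for 4 of 32 calls (T-MPAL) to 8 of 32 (T-ALL) in the leukaemias and 7 of 29 in the control. Over the INDEL calls of all libraries pooled these shares were 5% and 14.7%. The pooled shares count a call once per library, so they compare with the counts per library and not with the distinct calls.

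Frameshift calls carried a higher share of alternative reads than in-frame calls in every library. In T-MPAL the median share of reads with the alternative allele was 41.6% for frameshift and 18.5% for in-frame calls. It was 40.7% and 21.95% in AUL, 38.1% and 16.7% in T-ALL, 34.0% and 27.8% in AML, 32.95% and 22.1% in M-MPAL, and 29.9% and 21.5% in B-ALL. In the control it was 35.2% and 18.2%. The difference, frameshift minus in-frame, was positive in all 7 libraries and ran from 6.21 points in AML to 23.04 points in T-MPAL, with 16.98 points in the control. Calls within a library share their source and the same shared calls recur in each, so these 7 differences are not independent, and no test was made. In B-ALL and the control the in-frame calls include 2 insertions in Rsf1 that are entered with 1 read count for both, each at 100%. Without them the differences were 10.8 points in B-ALL and 19.2 points in the control. The direction did not hold under every rule. Once calls of a quality under 100 were left out, few in-frame calls remained, and the differences were -4.86 points in AML and -6.48 points in M-MPAL. With the Rsf1 entries they were then -3.00 points in B-ALL and -31.7 points in the control, and without these entries 4.35 points in B-ALL and 5.64 points in the control. With calls of a read share under 0.2 left out, the difference was -5.22 points in B-ALL, -0.648 points in M-MPAL and 2.56 points in T-ALL. Outside annotated repeats it was -2.40 points in B-ALL and 2.72 points in M-MPAL, against 3.53 points in the control. Without the 6 positions at 88.2 to 88.3 Mb of chromosome 1, the differences were 25.7 (AUL) to 83.2 points (T-MPAL) in the leukaemias and 84 points in the control. These last medians rest on few frameshift calls, since the 6 positions held 3 of 8 in T-MPAL and in the control. Among those kept were Ackr1, Fabp12 and Bean1, at 100% in every library, so the values reflect which calls remained.

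Quality, the Phred-scaled score of the deposited calls, followed the same line. The median quality was 177 (T-ALL) to 222 (AML and M-MPAL) for frameshift calls in the leukaemias and 222 in the control. For in-frame calls it was 29.7 (M-MPAL) to 176.5 (AML) in the leukaemias and 42.9 in the control. The tables hold no call under 20. The median over all INDELs at this depth was 49.1, close to that of the in-frame calls in B-ALL, T-ALL, AUL and the control.

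**Figure D3:**
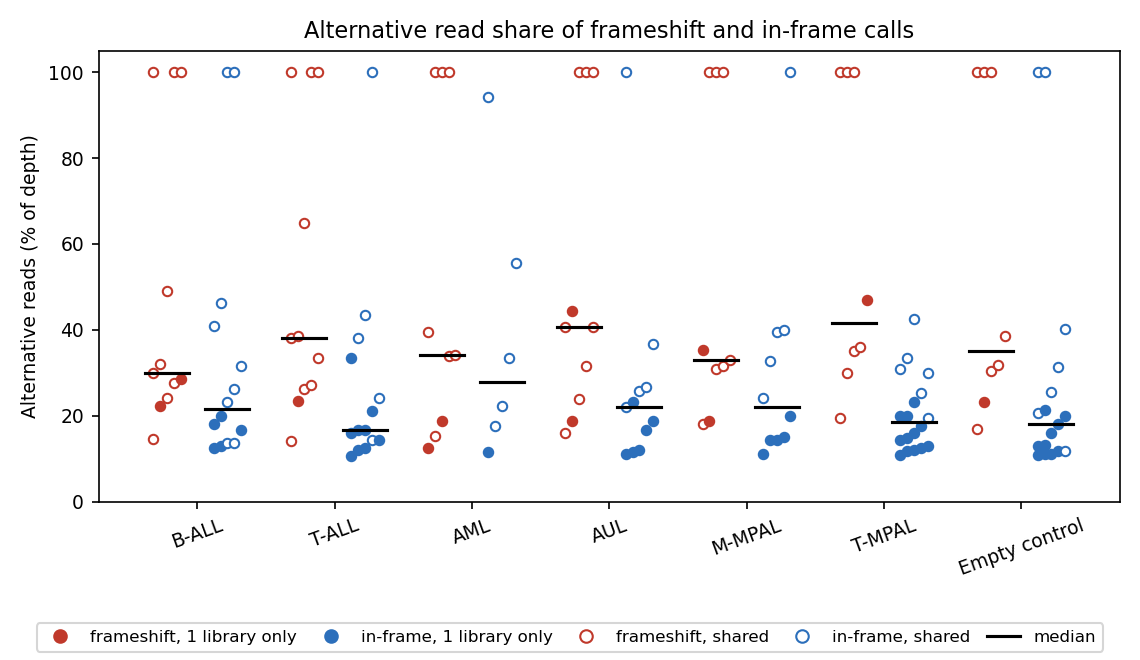
Share of reads with the alternative allele (y axis, % of depth) for each frameshift (red) and in-frame (blue) call in each library (x axis); filled points were called in that library alone, open points in others too, and black lines are medians. Filled in-frame points lie between 10.7% and 33.3% in all libraries, and points at 100% are open throughout.

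Sharing between libraries split the coding calls into extremes. Private calls, with 10 reads in 1 library and no call of the same alleles at any depth elsewhere, made up 60 of 88, or 68.2% (57.4 to 77.7), where 57.4% of all distinct INDELs were private. Calls in all 7 libraries made up 16 of 88, or 18.2% (10.8 to 27.8), where 2.38% of all distinct INDELs were. Between these ends, 9 calls were in 2 libraries, 1 in 3 and 2 in 5, and none was in 4 or 6. No coding INDEL was called in all 6 leukaemias and not in the control. Absence of a call is not absence of the allele, since the tables do not give the depth at positions without a call.

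A second alternative allele at the same position was found for 2 of 88 coding calls, both in Rsf1, where 41.5% of all distinct INDELs had one. Among the 60 private calls none had any other INDEL within 10 bases in another library (exact upper limit 5.96%). Of the 42 private calls inside an annotated repeat, 1 had another call in the same repeat elsewhere. That call was a 3-base deletion in Glrp1, a glutamine-rich protein, in the control, and a 9-base deletion was called in the same repeat on 2 of 2 reads in T-ALL, AML and AUL and on 7 of 7 in the control. The counts within 10 bases and within the same repeat have no matching share over all private INDELs here. Neither can therefore be read as a trait of coding calls.

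**Figure D4:**
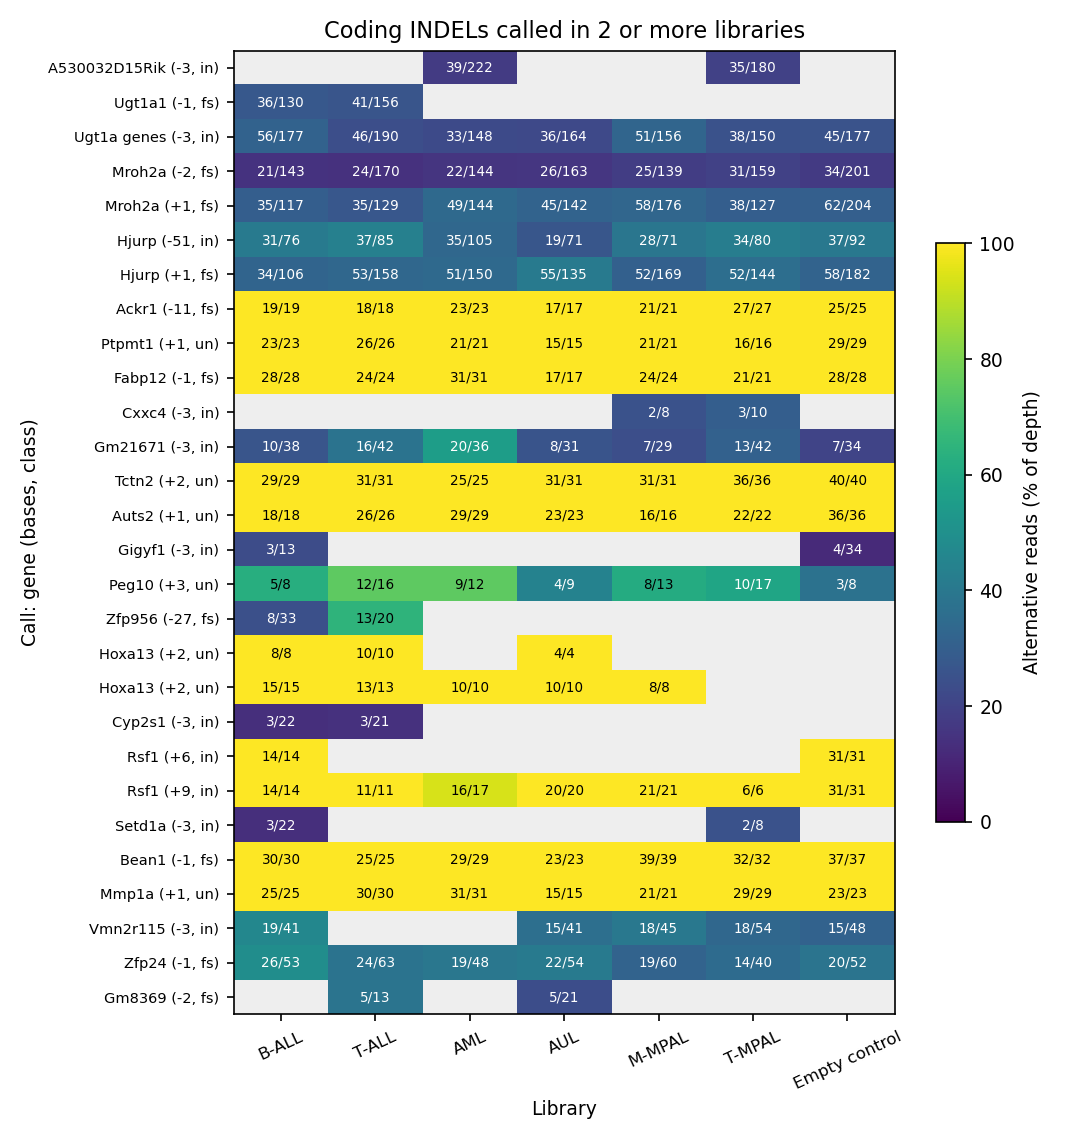
Coding INDELs called in 2 or more libraries (rows, in genome order; + for inserted and - for deleted bases; fs frameshift, in in-frame, un unknown) by library (columns), coloured by the share of alternative reads, with alternative reads and depth printed; grey cells had no call. The rows of Ackr1, Fabp12 and Bean1 are at 100% in all 7 columns, and the rows of Mroh2a lie between 14.1% and 34.0% in all 7.

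Among the calls in all 7 libraries were 3 frameshifts carried by every read. In Ackr1, the atypical chemokine receptor also known as the Duffy antigen, an 11-base deletion (F29fs) had 19 of 19 reads in B-ALL, 18 of 18 in T-ALL, 23 of 23 in AML, 17 of 17 in AUL, 21 of 21 in M-MPAL and 27 of 27 in T-MPAL, against 25 of 25 in the control. In Fabp12, a member of the fatty acid binding protein family, a 1-base deletion (S11fs; chr3:10252276-10252277) had all of 17 to 31 reads in the leukaemias and 28 of 28 in the control. In Bean1, which encodes a membrane protein that binds the ubiquitin ligase Nedd4, a 1-base deletion (L14fs; chr8:104182033-104182034) had all of 23 to 39 reads in the leukaemias and 37 of 37 in the control, and it was the only frameshift with a dbSNP entry. None of the 3 therefore separates any leukaemia from the control.

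Insertions of 1 or 2 bases with an unknown consequence showed the same pattern in 4 genes. They lay in Ptpmt1, a mitochondrial phosphatase of cardiolipin synthesis, in Tctn2, a protein of the ciliary transition zone, in Auts2, a nuclear regulator of neural genes, and in Mmp1a, a collagenase. Every read carried the insertion in all 7 libraries, with depths of 15 to 36 in the leukaemias and of 23 to 40 in the control. With the 3 frameshifts these were the 7 coding INDELs with the alternative allele on every read of all libraries.

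Of the 28 coding INDELs called in 2 or more libraries, 6 lay at 88.2 to 88.3 Mb of chromosome 1, and 5 of these were called in all 7 libraries. They were in the Ugt1a genes, which encode enzymes that attach glucuronic acid to bilirubin and drugs, in Mroh2a, which encodes a HEAT-repeat protein, and in Hjurp, the chaperone that loads the centromeric histone. In Mroh2a a 2-base deletion (P191fs; chr1:88232257-88232259) had 21 of 143 reads in B-ALL, 24 of 170 in T-ALL, 22 of 144 in AML, 26 of 163 in AUL, 25 of 139 in M-MPAL and 31 of 159 in T-MPAL, against 34 of 201 in the control. The second Mroh2a call, an inserted base (V1367fs; chr1:88256166), had 27.1% to 34.0% of reads in the leukaemias and 30.4% in the control. The depths of 117 to 204 reads in Mroh2a were above the median depth of frameshift calls, 25 to 48 in the leukaemias and 44.5 in the control. The deposited copy number was 10 to 12 at both Mroh2a positions in every library, the control included. Over all 6 calls it was 10 to 13 in the libraries that had the call.

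In Hjurp, whose exon the annotation also lists under A730008H23Rik, an inserted base (L221fs; chr1:88266524) had 30.8% to 40.7% of reads in the leukaemias and 31.9% in the control. A 51-base in-frame deletion (chr1:88266278-88266329), the longest coding INDEL, had 26.8% to 43.5% in the leukaemias and 40.2% in the control. The exon shared by the Ugt1a genes had a 3-base in-frame deletion in all 7 libraries, with 21.95% to 32.7% of reads in the leukaemias and 25.4% in the control. The sixth call, a 1-base deletion in the first exon of Ugt1a1 (M124fs; chr1:88212371-88212372), was listed for B-ALL (36 of 130 reads) and T-ALL (41 of 156) alone. Its mapping quality was 31 and 32, its quality 56 and 66. The segment held 4 of the 11 frameshift calls of B-ALL and of T-ALL and 3 of those of each other library, against 3 of 8 in the control. The part of the copy number in these read shares was not tested.

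Outside that segment, Zfp24, a zinc finger regulator of cell proliferation, had a 1-base deletion (P278fs) inside an annotated satellite repeat on 31.7% to 49.1% of reads in the leukaemias and 38.5% in the control. A 3-base deletion in Gm21671, in a segmental duplication, was at 24.1% to 55.6% in the leukaemias and 20.6% in the control, with mapping qualities of 36 to 40. Vmn2r115, a vomeronasal receptor gene in a segmental duplication, had a 3-base deletion in B-ALL (19 of 41 reads), AUL (15 of 41), M-MPAL (18 of 45) and T-MPAL (18 of 54), against the control (15 of 48), and no call in T-ALL and AML. A530032D15Rik, also in a segmental duplication, had one at very high depth in AML (39 of 222) and T-MPAL (35 of 180), with mapping qualities of 38 and 37. For these near-identical copies, reads of one copy can be placed on another, so the calls are uncertain.

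At the start codon of Rsf1, a chromatin remodelling factor, an insertion was called in every library. A 9-base insertion (M1delinsMATA) was called in all 7, on 11 of 11 reads in T-ALL, 16 of 17 in AML, 20 of 20 in AUL, 21 of 21 in M-MPAL and 6 of 6 in T-MPAL, the last under the depth limit. B-ALL (14 of 14 reads) and the control (31 of 31) had it as 1 of 2 alternative alleles, the second being a 6-base insertion (M1delinsMAT) in the same run of GGC and GAC units printed above. In those 2 libraries the deposited read count covers both insertions together, so their separate shares are unknown. The AUL table also lists a 3-base insertion 2 bases further on, at 4 of 5 reads.

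Peg10, an imprinted gene derived from a retrotransposon, had a 3-base insertion of unknown consequence in all 7 libraries, of which 4 passed the depth limit. Its read counts were 12 of 16 in T-ALL, 9 of 12 in AML, 8 of 13 in M-MPAL and 10 of 17 in T-MPAL, and those under the limit were 5 of 8 in B-ALL and 4 of 9 in AUL, against 3 of 8 in the control. Hoxa13, a homeobox gene with long alanine runs, had 2 insertions of 2 bases and unknown consequence on every read. One was called in B-ALL, T-ALL, AML, AUL and M-MPAL at 8 to 15 reads and the other in B-ALL, T-ALL and AUL at 4 to 10 reads. Neither was called in T-MPAL or the control, and the depth there is not in the tables.

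Calls shared by a pair of libraries alone were few. B-ALL and T-ALL shared 3, the Ugt1a1 frameshift, the Zfp956 deletion (8 of 33 reads in B-ALL and 13 of 20 in T-ALL) and a leucine codon in Cyp2s1, a cytochrome P450 (3 of 22 and 3 of 21). B-ALL and the control shared 2, the 6-base Rsf1 insertion and a glutamine codon of Gigyf1, a translation regulator (3 of 13 reads in B-ALL and 4 of 34 in the control). M-MPAL and T-MPAL shared a glycine codon of Cxxc4, an inhibitor of Wnt signalling, at 2 of 8 and 3 of 10 reads. B-ALL and T-MPAL shared a glycine codon of Setd1a, a histone H3 lysine methyltransferase, at 3 of 22 and 2 of 8. A 2-base deletion in Gm8369 (R129fs) was shared by T-ALL (5 of 13) and AUL (5 of 21), and the A530032D15Rik deletion by AML and T-MPAL. B-ALL and AML shared none.

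Of the leukaemias, T-MPAL had the most private coding INDELs, 14 (95% Poisson interval 7.65 to 23.5), followed by T-ALL with 10 (4.80 to 18.4), AUL with 8 (3.45 to 15.8), B-ALL and M-MPAL with 7 each (2.81 to 14.4) and AML with 3 (0.619 to 8.77). The control had 11 (5.49 to 19.7). The control lay inside the range of the leukaemias and above 5 of the 6. Among all INDELs at this depth, private calls made up 31.9% in T-MPAL, 35.1% in T-ALL, 33.1% in AUL, 32.9% in B-ALL, 34.3% in AML and 32.4% in M-MPAL, against 34.8% in the control. The AML library, with 3 of 21 coding calls private, stood lowest and T-MPAL, with 14 of 32, highest, and their intervals overlapped. In-frame calls made up 48 of the 60, frameshift calls 11, and the last was a 6-base deletion of unknown consequence in Peg10 (T-MPAL, 3 of 15 reads).

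The 48 private in-frame calls were nearly uniform. Their median share of alternative reads was 14.3%, from 10.7% to 33.3%, at a median depth of 25 reads, and 38 of 48 (79.2%; 65.0 to 89.5) were under 20%. Of the private INDELs of any length with 20 to 40 reads, 32.5% were under 20%. A closer comparison is with private 3-base deletions in simple repeats outside exons, of which 4107 were called with a median share of 18.2% and a median depth of 17, and 59.2% were under 20%. At 20 to 40 reads, 26 of 29 such coding deletions were under 20% (89.7%; 72.7 to 97.8), against 83.1% of 1540 outside exons. At that depth the coding deletions had a median share of 12.9% and a median quality of 34.6, against 14.8% and 37.6 outside exons. Low read shares were common to coding triplet deletions and those outside exons. Only 2 of 48 reached a quality of 100, those in Zfp503 in T-ALL (4 of 12 reads) and D6Ertd527e in T-MPAL (5 of 25).

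Trinucleotide runs held most in-frame calls. Of the 55 in-frame 3-base deletions, 50 removed a unit present in at least 4 tandem copies in the deposited reference allele, with a median of 7 and a maximum of 16 copies over the 55. Units of the AGC class (CAG, GCA and their complements) made up 28, AGG 11, CCG 9, AAG 5, and ACC and ATC 1 each. For 42 runs the gene's strand in the RefSeq table gave the residue: 15 were runs of glutamine, 10 of glutamate, 7 of glycine, 4 of serine, 2 of leucine, 2 of proline, 1 of alanine and 1 of lysine.

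Glutamine runs lost a CAG codon in 14 private calls. In the leukaemias the longest runs were in Kmt2d, a histone H3 lysine methyltransferase, with 16 copies in exon 35 (M-MPAL, 5 of 33 reads) and 15 in exon 40 (T-MPAL, 5 of 42). Both positions lay where the copy number table lists 3 copies in the library that had the call. The related methyltransferase Kmt2c had 5 copies (B-ALL, 3 of 24 reads). Those in the empty control included Il2, the T cell growth factor interleukin 2, whose mouse form carries a glutamine run (4 of 22 reads, 12 copies), Clock, the circadian transcription factor (4 of 25 reads, 8 copies), and Med12l, a relative of the Mediator kinase module subunit Med12 (4 of 20, 12 copies). The same kind of change was thus found in leukaemias and control, at similar read counts.

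Glutamate runs gave 10 private calls. They included Blm, the helicase mutated in Bloom syndrome (M-MPAL, 4 of 36 reads, 9 copies), Aebp1, an extracellular matrix protein (T-ALL, 5 of 30, 8 copies), and Fam71e1 (B-ALL, 4 of 31, 11 copies), against Ifnlr1, the interferon lambda receptor, in the control (5 of 38, 7 copies). Glycine runs included Twist1, a helix-loop-helix factor of mesenchyme (B-ALL, 3 of 18 reads, 5 copies), and Rundc3b (AUL, 3 of 16, 8 copies). The serine runs included Mllt3, a subunit of the super elongation complex and a fusion partner of Kmt2a in human leukaemia, in the control (3 of 27 reads, 6 copies). Alternative reads came from both strands in 42 of the 48 private in-frame calls.

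The longest private in-frame deletion removed 39 bases of Pik3r1, the regulatory subunit of phosphoinositide 3-kinase, in AUL. It was annotated as 441_454del, in the stretch between the SH2 domains, and had 3 of 27 reads (11.1%) at a quality of 24.97. It was the only in-frame private call of more than 3 bases, and no repeat was annotated there. A private deletion in Gm1979 (M-MPAL, 6 of 30 reads) had a mapping quality of 38 and lies in a segmental duplication. The same annotated change, 490_492del, was called in all 7 libraries in Gm21671, also on chromosome 5 and in a segmental duplication. The private status of the Gm1979 call is therefore uncertain.

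**Figure D5:**
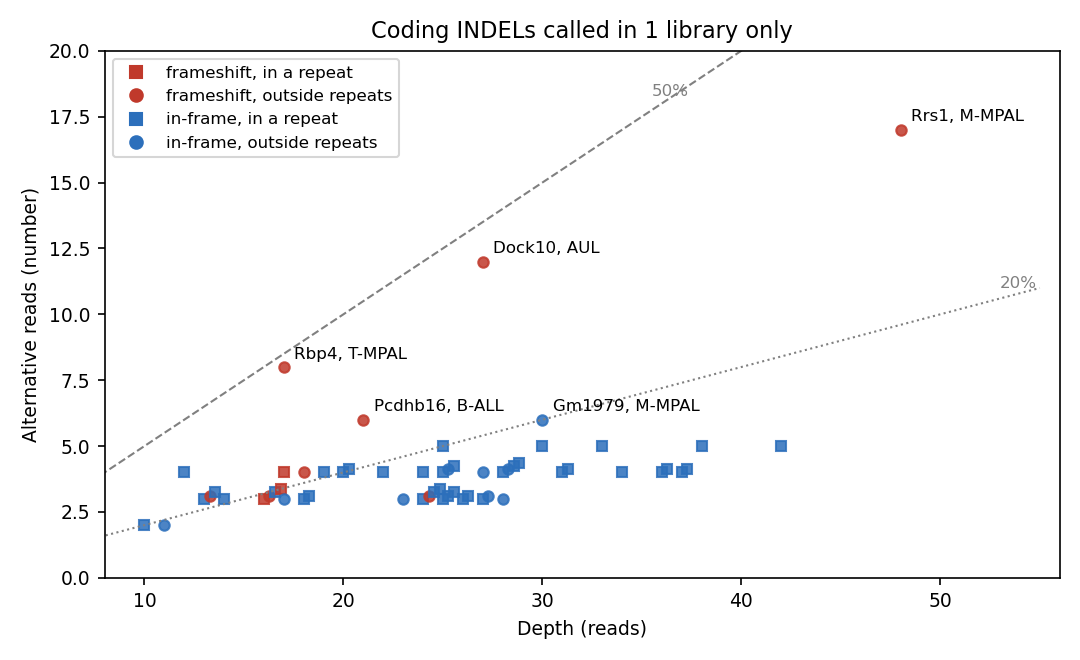
Alternative reads (y axis, number) against depth (x axis, reads) for the 59 frameshift (red) and in-frame (blue) coding INDELs called in 1 library alone; squares lie in annotated repeats, overlapping points are drawn slightly apart, and dashed and dotted lines mark shares of 50% and 20%. In-frame calls stay at 2 to 6 alternative reads, while Rrs1, Dock10 and Rbp4 stand above them at 17, 12 and 8.

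Private frameshifts were fewer and reached higher read shares. The 11 calls had a median share of 23.1%, from 12.5% to 47.1%, a median depth of 17 and a median quality of 46.7. The private in-frame calls had a median depth of 25. The shares of the 2 classes were not compared at equal depth, and at lower depth the same read count makes a higher share. Of the 11, 4 were under 20% and 7 rested on 5 or fewer alternative reads. Each leukaemia had 1 or 2 of them and the control 1. Read counts above 5 were found in 4, in B-ALL, AUL, M-MPAL and T-MPAL. With 6 leukaemia libraries beside 1 control that held 1 of the 11, this does not set leukaemias apart from the control.

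In AUL, Dock10, an exchange factor for the small GTPases Cdc42 and Rac that is expressed in lymphocytes, lost 1 base (E387fs; chr1:80592614-80592615). The call had 12 of 27 reads (44.4%) on both strands and a quality of 174, the highest of the private coding calls. In T-MPAL, Rbp4, the plasma carrier of retinol, lost 1 base (G25fs; chr19:38124993-38124994) on 8 of 17 reads (47.1%) at a quality of 108. These were the only private frameshifts with a quality of at least 100. In M-MPAL, Rrs1, a ribosome assembly factor, had the most alternative reads of any private coding call, 17 of 48 (35.4%), for a 2-base deletion (A194fs; chr1:9546103-9546105). Its mapping quality was 39, where the other 10 private frameshifts had 47 to 50, its quality was 75 and the deposited copy number there was 3 in that library. In B-ALL, Pcdhb16, a protocadherin of the clustered family, gained 1 base (P675fs) on 6 of 21 reads, of which 5 were on 1 strand, at a quality of 21.5.

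The remaining private frameshifts had 3 or 4 alternative reads. They were Smarcd2, a subunit of SWI/SNF chromatin remodelling complexes that is needed for granulocyte maturation (B-ALL, 4 of 18 reads), Usp30, a mitochondrial deubiquitinase (T-ALL, 4 of 17, a GT insertion in a GT repeat), Dnajc19, a mitochondrial import cochaperone (AML, 3 of 16), and Pole, which encodes the catalytic chain of the replicative polymerase epsilon (AML, 3 of 24). Usp8, an endosomal deubiquitinase, lost an ATGT unit of a tandem repeat (M-MPAL, 3 of 16), of which 2 bases were annotated as coding. The Gm4307 group was hit in AUL (3 of 16) and Tstd3, a gene of the thiosulfate sulfurtransferase family, in the control (3 of 13). The Pole deletion took 1 of the TG units shown above. Each of these read counts is as low as those of the in-frame calls.

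Of 181 genes in 6 lists of leukaemia, DNA repair, Myc network and coding repeat genes, 6 (3.31%) had a coding INDEL, with 8 calls in all, of which 1 was a frameshift. Among the 20665 protein-coding genes of chromosomes 1 to 19 in the RefSeq table, 90 (0.436%) had one. The lists were chosen with earlier results of these data known. The coding repeat list, which held 3 of the 6 genes hit, was chosen for the kind of sequence where most in-frame calls lay. The 2 shares are therefore no test of enrichment. Mllt3 and Kmt2c, described above, are on none of the 6 lists. The lists are named for diseases and not for these libraries. Of 36 T-ALL genes only Pik3r1 was hit, in the AUL library. Of 34 B-ALL genes only Kmt2d was hit, in the M-MPAL and T-MPAL libraries. Of 31 DNA repair genes Blm (M-MPAL) and Pole (AML) were hit, and of 48 coding repeat genes Clock, Hoxa13 and Kmt2d. None of 37 AML genes and none of 19 Myc network genes had a coding INDEL in any library. No gene had coding INDELs at more than 2 positions. With 1 library per population these counts describe the libraries.

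The depth rule left out 26 exonic calls on chromosomes 1 to 19. Just under it lay an inserted base in Muc4, a membrane mucin with a long repeat array, annotated as frameshift and carried by every read in B-ALL (7 of 7), T-ALL (8 of 8), AML (5 of 5), AUL (4 of 4) and T-MPAL (5 of 5), against 9 of 9 in the control. The lowest depths inside the rule were 10 reads, as in Gapdhs, a sperm glycolytic enzyme (B-ALL, 2 of 10).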

How the data were processed

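Whole-genome libraries of 7 mouse bone marrow populations were compared, 1 per group. The submitters' processing notes name BWA and mm10. INDELs were called with samtools and annotated with ANNOVAR (genes, repeats, segmental duplications, dbSNP build 142), and copy number came from FREEC, per the file headers and names; caller versions and filters, not given in the sources used here, cannot be stated. The deposited tables give a Phred-scaled quality score for each INDEL, and other deposited fields give genotype, depth, alternative reads and, in the copy number tables, whole copies per region. The AUL copy number table breaks off early, so that AUL copies are known for part of the genome.

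Coding INDELs were exonic calls on chromosomes 1 to 19 with at least 10 reads. Class was the deposited consequence, length the difference of allele lengths, and read share the alternative reads over depth. A private call had 10 reads in 1 library and no call of the same alleles at any depth in the other 6. Tandem copies were counted in the deposited reference alleles, and residues used strands of the RefSeq table for GRCm38.p6. Coordinates are those of the tables, where the first base precedes the change. Counts carry exact Poisson and shares exact Clopper-Pearson intervals at the 95% level. No test between groups was possible with 1 library each. The depth limit and the rule for private calls were tried on simulated calls with planted sharing. The deposited class was not tested, because the simulated class was set from the length itself. Python 3.11.15, pandas 2.3.3, scipy 1.17.1 and matplotlib 3.10.9 were used.

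Named were genes of 6 lists, frameshifts in all libraries, private calls with the most alternative reads per library, genes with several positions and pair-shared calls; other calls were named after their values were seen. The members, lists and rules were chosen with earlier results of these data known. Alternatives changed the depth, quality, read share, repeat and sharing rules. The 6 integration-site samples are not analysed here.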

Additional observations from a re-analysis of the deposited data

How the results depend on the processing

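Each count, share and difference per library was recomputed under other rules, 266 values in all, of which 9 reversed, 50 moved and 207 did neither. The last stayed within 1.5 times a reported count, inside the 95% interval of a reported share or, for the frameshift minus in-frame difference, within the half-width of the interval of a single read share, which is wide. Differences inside that width still changed by over 1.5 times: to 2.56 points in T-ALL, against 10.1 in the control, at a read share of at least 0.2, to 14.5 in AML at 20 reads or more, to 13.4 in T-MPAL at a quality of 100 or more, and to 2.72 in M-MPAL, against 3.53 in the control, outside annotated repeats. A quality of at least 100 lowered the coding INDELs to 19 in T-ALL and B-ALL, 17 in T-MPAL, 16 in AUL and 15 in M-MPAL, against 15 in the control, and the private ones to 0 in B-ALL, AML and M-MPAL, 1 in T-ALL and AUL and 2 in T-MPAL, against 0 in the control. It put the frameshift share at 66.7% in T-MPAL and 72.7% in AUL, against 63.6% in the control, and the insertion share at 41.2% in T-MPAL, against 53.3%. It left few in-frame calls and turned the frameshift minus in-frame difference to -3.00 points in B-ALL, -4.86 in AML and -6.48 in M-MPAL, against -31.7 in the control. Without the 2 Rsf1 entries that share 1 read count it was 4.35 in B-ALL, with AML at -4.86 and M-MPAL at -6.48 as before, against 5.64 in the control. A read share of at least 0.2 left 21 coding calls in T-MPAL, against 19 in the control. Private calls were then 3 in B-ALL and T-ALL, 0 in AML, 2 in AUL and M-MPAL and 5 in T-MPAL, against 3 in the control, and the difference was -5.22 points in B-ALL, 25.4 in AML and -0.648 in M-MPAL. Outside annotated repeats there were 19 coding calls in B-ALL, 17 in T-ALL and 16 in AUL, against 15 in the control; private calls were 3 in B-ALL, 1 in T-ALL, 2 in AUL and M-MPAL and 7 in T-MPAL, against 1. The frameshift share was then 66.7% in B-ALL and T-ALL, against 63.6% in the control, and the difference was -2.40 points in B-ALL. At least 20 reads left 17 coding calls in AUL, with 4 private, and 3 private in B-ALL. Leaving out the segment of chromosome 1 with 10 copies or more kept few frameshift calls, with Ackr1, Fabp12 and Bean1 at 100% among them. Under that rule the difference became 83.2 points for T-MPAL, 50.1 for M-MPAL, 48.7 for T-ALL, 33.2 for AML and 29.97 for B-ALL, against 84 for the control. That rule, the omission of the Rsf1 entries, the class by allele length and the sharing by repeat were added after seeing the data. Stricter rules by construction keep fewer calls; other causes were not tested. Calls of both exonic and splicing annotation did not occur, so adding them changed nothing. No paired analysis was possible because each group had 1 library. At 10 to 42 reads per private in-frame call, a share near 14.3% rests on 2 to 6 reads.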
